A study of Bos taurus with 8 samples.

Results

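DNA methylation was described over the genes that encode the subunits of nuclear factor kappa B (NF-kappa-B) and its inhibitors: NFKB1, NFKB2, REL, RELA, RELB, NFKBIA, NFKBIB, NFKBIE, NFKBID and NFKBIZ. The members were all windows carrying one of these 10 gene symbols, of 26107 symbols in the files, together with the 2 windows on each side of each gene. The files held 86 such windows and 40 flanking windows, of 902984 windows in all, and every one of these 126 windows was 3000 bp long. Cells were un-treated dermal fibroblasts, grown from shoulder skin of 4 Holstein heifers, a dairy breed, and 4 Angus heifers, a beef breed, of the same age at sampling. All cultures were grown without LPS in DMEM with 5% fetal bovine serum and were used at passage 5, with 1 MIRA-Seq library per animal. MIRA-Seq pulls down methylated DNA fragments with methyl-binding domain proteins and sequences them, so that a higher read count in a window stands for more methylated CpGs recovered there. The assay reads DNA and carries no expression markers, so the labelled cell type could not be checked, and cultured fibroblasts are a model of the breeds in which no immune cells were measured.

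NF-kappa-B is a family of dimeric transcription factors that turn on inflammatory genes after LPS, TNF or IL1 reach the cell. In resting cells the dimers are held in the cytoplasm by inhibitors of the I-kappa-B family, and the IKK kinase complex releases them by marking the inhibitor for degradation. Several inhibitor genes are themselves targets of NF-kappa-B, which closes a negative feedback loop, and dermal fibroblasts use this pathway to make cytokines and chemokines.

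Library totals over the windows lay between 18691111 and 35525554 reads, and counts were expressed as CPM, scaled to a library total of 1000000. A count of 3 reads then equals 0.0844 to 0.161 CPM, the level that a count of 0 still allows. The 2 libraries Holstein 1 and Angus 3 stood apart: 24.9% and 21.8% of their reads lay in windows with a gene symbol, compared with 30.2% to 34.3% in the other libraries. Their CPM values were also low in most members, so the counts of members called and the single windows named for a breed difference are also given without them. CPM values, their means and the overlap of breeds carry no TMM factor, edgeR's scaling between libraries, whereas fold changes and p values include it. For gene totals these factors ran from 0.666 in Angus 3 to 1.23 in Holstein 4, with Holstein 1 at 0.747. The order of libraries can therefore differ between the scales.

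Levels are given per gene as CPM per 3 kb window, averaged over all windows of the gene, so that genes of different length can be set side by side. The 10 genes covered a wide range, from a mean of 0.164 CPM for REL to 2.58 CPM for NFKBIB, and the median over all genes was 0.522 CPM. A level can depend on CpG density as well as on methylation, since no input library was used here.

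**Figure D1:**
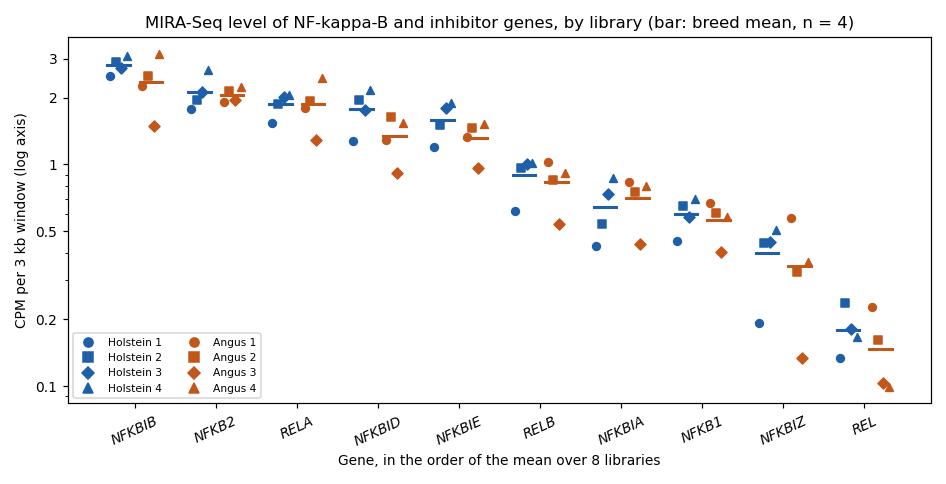
Methylation level of the 10 genes in each library, as CPM per 3 kb window on a log axis, with a symbol for each Holstein and Angus library and a short bar for the mean of each breed (n = 4). NFKBIB, NFKB2 and RELA stand highest and REL lowest. In these CPM values, without TMM factors, the libraries of the breeds lie over each other in all 10 genes.

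Among the subunits made as precursors, NFKB2, which serves the non-canonical pathway, had the higher level. NFKB2 (chromosome 26, 22890031 to 22899030, 3 windows) measured 1.79, 1.95, 2.12 and 2.66 CPM in Holstein libraries 1 to 4 and 1.91, 2.16, 1.95 and 2.23 CPM in Angus libraries 1 to 4. NFKB1 (chromosome 6, 23556582 to 23670581, minus strand, 38 windows), the usual partner of RELA, measured 0.450, 0.650, 0.580 and 0.698 CPM in Holstein and 0.667, 0.607, 0.402 and 0.581 CPM in Angus. The breeds overlapped in both genes, and in CPM the lowest NFKB1 values were those of Holstein 1 and Angus 3. These 2 libraries also had the lowest TMM factors for gene totals, 0.747 and 0.666, which CPM does not include.

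RELA (chromosome 29, 44495919 to 44507918, minus strand, 4 windows), the main activating subunit of the canonical pathway, measured 1.54, 1.88, 2.01 and 2.07 CPM in Holstein and 1.80, 1.94, 1.28 and 2.46 CPM in Angus. RELB (chromosome 18, 53097398 to 53127397, 10 windows), the partner of NFKB2, measured 0.617, 0.961, 1.01 and 1.02 CPM in Holstein and 1.03, 0.855, 0.537 and 0.915 CPM in Angus. REL (chromosome 11, 43488485 to 43530484, 14 windows), a subunit best known from lymphoid cells, measured 0.134, 0.238, 0.181 and 0.167 CPM in Holstein and 0.227, 0.161, 0.103 and 0.0994 CPM in Angus. The breeds overlapped in all 3 genes, and the Angus values of RELA spread over a wider range than its Holstein values. REL rested on few reads, 26 to 91 per library over its 14 windows, and 3 of its windows held at most 3 reads in every library.

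The classical inhibitors bind the dimers in the cytoplasm. NFKBIA (chromosome 21, 46064163 to 46070162, minus strand, 2 windows), the inhibitor that is made again fastest after activation, measured 0.430, 0.541, 0.738 and 0.873 CPM in Holstein and 0.838, 0.748, 0.437 and 0.803 CPM in Angus. NFKBIB (chromosome 18, 48882198 to 48894197, 4 windows) measured 2.50, 2.90, 2.71 and 3.08 CPM in Holstein and 2.26, 2.49, 1.49 and 3.16 CPM in Angus. NFKBIE (chromosome 23, 17879993 to 17888992, minus strand, 3 windows) measured 1.20, 1.50, 1.79 and 1.89 CPM in Holstein and 1.33, 1.46, 0.963 and 1.52 CPM in Angus. NFKBIB was above and NFKBIA below NFKBIE in all 8 libraries, and Angus 3 was the lowest library for NFKBIB and NFKBIE.

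The atypical inhibitors act in the nucleus. NFKBID (chromosome 18, 46767198 to 46776197, minus strand, 3 windows), studied mainly in lymphocytes, measured 1.28, 1.96, 1.75 and 2.16 CPM in Holstein and 1.29, 1.65, 0.918 and 1.53 CPM in Angus. NFKBIZ (chromosome 1, 46540501 to 46555500, 5 windows), a co-activator that is induced by LPS and IL1, measured 0.192, 0.441, 0.446 and 0.507 CPM in Holstein and 0.572, 0.327, 0.134 and 0.364 CPM in Angus. In CPM, without TMM factors, both genes overlapped between the breeds, and 3 of the 4 Holstein libraries of NFKBID lay above every Angus library.

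In order of mean level over the 8 libraries, NFKBIB (2.58 ± 0.534 CPM, SD) was followed by NFKB2 (2.09 ± 0.273), RELA (1.87 ± 0.353), NFKBID (1.57 ± 0.401), NFKBIE (1.45 ± 0.300), RELB (0.867 ± 0.189), NFKBIA (0.676 ± 0.180), NFKB1 (0.579 ± 0.104), NFKBIZ (0.373 ± 0.151) and REL (0.164 ± 0.0515). Each gene lay above the next in all 8 libraries at 4 of the 9 steps, namely from NFKBIE to RELB, from RELB to NFKBIA, from NFKB1 to NFKBIZ and from NFKBIZ to REL. At the other steps the order changed between libraries, least clearly from NFKBID to NFKBIE, where it held in 5 of 8 libraries. The order of the means stayed the same without Holstein 1 and Angus 3. Among all gene symbols NFKBIB stood at the 91.9th percentile, NFKB1 at the 53.4th and REL at the 10.6th.

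The first question was whether the breeds differed in the total of any of these genes. Reads were summed per gene and compared by edgeR's likelihood-ratio test over all 19372 genes with at least 1 CPM in at least 4 libraries, and a gene was called at FDR < 0.1 and a fold change (FC) ≥ 2. All 10 members passed the filter and 0 were called, where 14 genes (0.0723%) were called over the whole table. An unadjusted p under 0.05 was reached by 0 members, both by this test and by the quasi-likelihood test, and by 1.97% of all genes. In CPM, which unlike the test carries no TMM factor, the Holstein and Angus libraries separated without overlap in 0 members and in 0.336% of all genes. With CPM divided by the TMM factors, NFKBID separated, Holstein above Angus, and the other members overlapped. The share of all genes that separate on that scale was not counted. Log2 fold changes, given as Holstein over Angus, were above 0 in 5 of 10 members and in 48.5% of all genes. Without Holstein 1 and Angus 3, 0 members were again called, and 3 of 10 log2 fold changes were above 0.

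The member nearest to the threshold was NFKBID, with a mean of 1.79 ± 0.377 CPM (SD, n = 4) in Holstein and 1.35 ± 0.322 CPM in Angus. Fold changes include TMM factors and these means do not, so the 2 need not match. The log2 fold change of NFKBID was 0.27 with an SE of 0.14 (95% interval -0.01 to 0.55) and an adjusted p of 1.00 by edgeR's likelihood-ratio test. NFKBIA lay at the other end, with 0.645 ± 0.198 CPM in Holstein and 0.706 ± 0.183 CPM in Angus. Its log2 fold change was -0.24 ± 0.21 (SE), and it lay between -0.36, without Holstein 4, and -0.12, without Holstein 2, when 1 library was left out. The intervals of these and the other 8 genes all included 0. All 10 intervals lay inside a 2-fold difference, the widest being that of NFKBIZ, -0.44 to 0.58, and that of REL, -0.32 to 0.54. That of NFKBIA ran from -0.66 to 0.18.

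The remaining log2 fold changes were small compared with their errors. Among the subunits they were -0.12 ± 0.18 (SE) for NFKB2, -0.12 ± 0.15 for RELA, -0.07 ± 0.11 for NFKB1, -0.03 ± 0.13 for RELB and 0.11 ± 0.22 for REL. Among the inhibitors they were 0.14 ± 0.16 for NFKBIB, 0.14 ± 0.15 for NFKBIE and 0.07 ± 0.26 for NFKBIZ. Several of these moved by more than 1.5 times when 1 library was left out, for example RELA to -0.02 without Angus 4 and NFKBIB to 0.03 without Holstein 1. Without both Holstein 1 and Angus 3, NFKB2 was at -0.04 and RELA at -0.19. When libraries were scaled by total counts only, NFKB1, NFKB2, RELA and RELB turned to the other side of 0, so that 9 of 10 members lay above 0. That scaling moved the median of all genes to 0.15, and these 4 genes lay below that median.

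**Figure D2:**
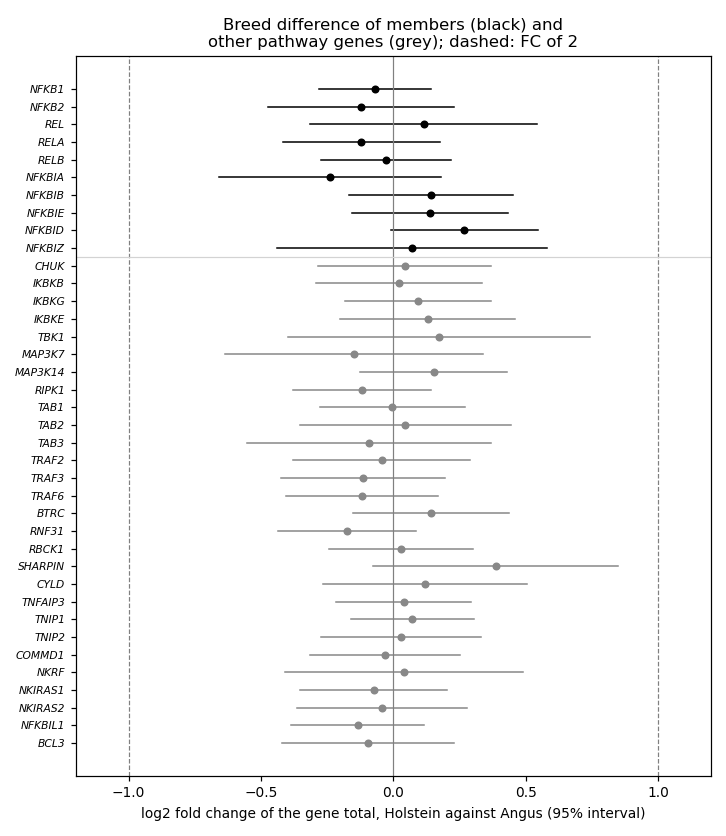
Log2 fold change of gene totals, Holstein over Angus, with 95% intervals, for the 10 members in black and the 28 tested genes of the wider pathway in grey, with dashed lines at a fold change of 2. All 10 member intervals include 0 and lie between the dashed lines.

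The wider pathway list held 31 genes, of which 29 had windows under their symbol and 28 passed the filter. BIRC3, an inhibitor of apoptosis with ubiquitin ligase activity, did not. Its level was 0.133 CPM per window, while the filter was set on the total over its 5 windows. Of these 28 genes, 0 were called and 0 had an unadjusted p under 0.05, and 15 had a log2 fold change above 0. The smallest p belonged to SHARPIN, with a log2 fold change of 0.39 ± 0.24 (SE) and an adjusted p of 1.00 by edgeR's likelihood-ratio test. RNF31 followed at -0.17 ± 0.13 and MAP3K14, the kinase of the non-canonical pathway, at 0.15 ± 0.14. SHARPIN and RNF31 encode parts of the ligase that builds linear ubiquitin chains, and their fold changes lay on opposite sides of 0. The median level of the list was 1.46 CPM.

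The second question was whether single windows within these genes differed where the total did not. Of the 86 windows, 22 passed the filter of at least 1 CPM in at least 4 libraries, and 0 were called, beside 267 of 115360 windows (0.231%) over the genome. An unadjusted p under 0.05 was found in 2 of the 22 windows and in 4.94% of all tested windows, and 8 of the 22 had a log2 fold change above 0, beside 49.6% of all. In CPM, without TMM factors, the breeds did not overlap in 1 of the 22 windows and in 1.31% of all tested windows. Log2 fold changes over the 22 windows ran from -0.36 to 0.44.

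The window without overlap in CPM was the middle window of NFKBIE (chromosome 23, 17882993 to 17885992), with coding exon 3 listed there. It measured 1.52, 1.73, 2.57 and 1.91 CPM in Holstein and 1.36, 1.50, 1.07 and 1.12 CPM in Angus. In CPM, which carries no TMM factor, each Holstein library lay above each Angus library. The gap was narrow, between Holstein 1 at 1.52 and Angus 2 at 1.50 CPM. The fold change includes the TMM factors, such as 0.817 for Holstein 1 and 0.677 for Angus 3. The factors of Holstein 2 and Holstein 4 were 1.12 and 1.22. With CPM divided by these factors, Angus 3 lay above Holstein 2 and Holstein 4, so the breeds overlapped on that scale. The log2 fold change was 0.44 with an SE of 0.20 (adjusted p = 0.895 by edgeR's likelihood-ratio test), and the windows on either side of it in NFKBIE overlapped between the breeds. The log2 fold change was 0.29 without Holstein 3, 0.33 without Angus 4 and 0.51 without Holstein 1 and Angus 3.

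The other window was the last of NFKBID (chromosome 18, 46767198 to 46770197), which was also its highest. It measured 1.82, 2.29, 2.46 and 2.81 CPM in Holstein and 1.47, 1.88, 1.28 and 1.98 CPM in Angus. In CPM without TMM factors, Holstein 1, the lowest of its breed, lay within the Angus range, while the other Holstein libraries lay above it. Holstein 1 and Angus 3 had the lowest TMM factors, 0.817 and 0.677. With CPM divided by the TMM factors, each Holstein library lay above each Angus library. The share of all tested windows that separate on that scale was not counted. The log2 fold change was 0.39 with an SE of 0.16 (adjusted p = 0.780). Without Holstein 1 and Angus 3 it was 0.42, and the other windows of NFKBID had log2 fold changes of 0.26 and 0.14 over all 8 libraries.

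In the flanking windows, 15 of 40 passed the filter, 0 were called and 1 had an unadjusted p under 0.05. It was the window at 17891993 to 17894992 on chromosome 23, the farther one upstream of NFKBIE, which carries the symbol TMEM151B and lists its coding exon 2. It measured 1.82, 3.85, 3.18 and 2.53 CPM in Holstein and 2.76, 3.72, 3.96 and 3.1 CPM in Angus. The log2 fold change was -0.46 ± 0.21 (SE, adjusted p = 0.910). The breeds overlapped, and without Angus 3, the highest library, the log2 fold change was -0.18 and without both Angus 3 and Holstein 1, the lowest, it was -0.13.

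The 64 windows below the filter were read from a fit of all 887821 windows with reads. In that fit 0 of the 86 windows had FDR < 0.1, so 0 were called, beside 905 windows (0.102%) called at FDR < 0.1 and FC ≥ 2. Of the 86, 6 had an unadjusted p under 0.05, beside 4.55% of all. The middle window of NFKBIE and the last of NFKBID were not among these 6. Their unadjusted p in this fit was 0.0726 and 0.158 by edgeR's likelihood-ratio test. The smallest p was that of the first window of NFKBIB (chromosome 18, 48882198 to 48885197), which held 7, 20, 15 and 43 reads in Holstein and 14, 11, 6 and 8 reads in Angus. This came to 0.749 ± 0.372 CPM (SD, n = 4) and 0.375 ± 0.124 CPM. The log2 fold change was 0.91 ± 0.32 (SE, adjusted p = 0.689). Holstein 1, at 0.354 CPM, lay below 3 of the 4 Angus libraries.

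The other 5 windows had an adjusted p of 1.00 and lay on both sides of 0. The first window of NFKBIA held 5, 5, 9 and 15 reads in Holstein and 22, 18, 7 and 4 reads in Angus, and its log2 fold change was -0.72 ± 0.36 (SE). The last window of RELB (53124398 to 53127397) stood at -0.93 ± 0.42, and windows 4 (23658582 to 23661581) and 12 (23634582 to 23637581) of NFKB1 stood at 0.71 ± 0.32 and 1.00 ± 0.44. The breeds overlapped in these 4 windows. Window 4 of REL (43497485 to 43500484) held 0, 2, 0 and 0 reads in Holstein and 6, 1, 1 and 1 reads in Angus, too few for a fold change.

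The third question was how methylation was laid out along the genes. The first window that carries a gene's symbol, by strand, stands for its start here, since the files give no start sites, and unmethylated CpG islands at promoters are common in vertebrates. Within each library, the first window was compared with the mean of the other windows of the same gene, which needs no scaling between libraries. Of the 9 members with 3 or more windows, the first window was below the mean of the others in all 8 libraries in 7, beside 44.8% of 16231 such genes. NFKBIA, with 2 windows, showed the same in all 8 libraries. REL and NFKBID did not, with the first window lower in 1 and 3 of 8 libraries.

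**Figure D3:**
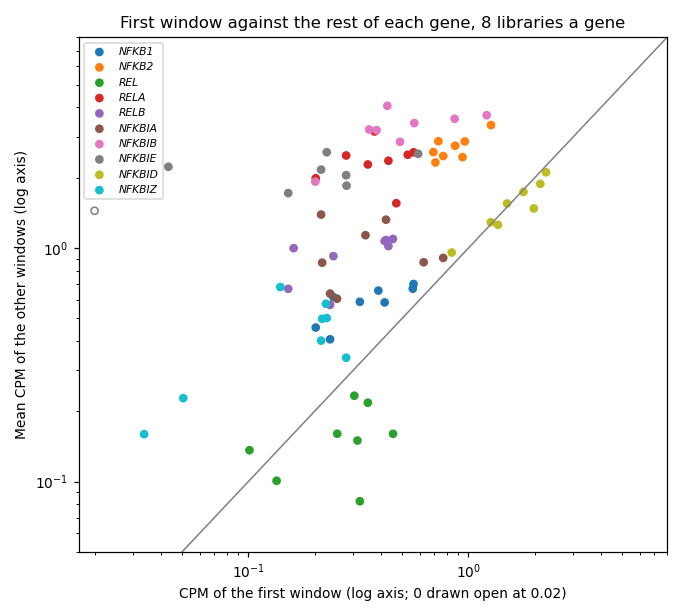
CPM in the first window of each gene on the x axis and the mean CPM of its other windows on the y axis, both log axes, with 1 point per library and gene, the line of equal values, and 0 drawn as an open point at 0.02. All points lie above the line for NFKB1, NFKB2, RELA, RELB, NFKBIA, NFKBIB, NFKBIE and NFKBIZ, but not for REL and NFKBID.

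The size of this step varied among the members. In NFKBIE the first window (chromosome 23, 17885993 to 17888992) held 3, 1, 6 and 21 reads in Holstein and 8, 8, 0 and 4 reads in Angus. Its mean of 0.223 ± 0.181 CPM (SD, n = 8) stood against 2.07 CPM in the other windows, 9.28 times as much. RELA had 0.400 ± 0.123 CPM in its first window (44504919 to 44507918) and 5.91 times as much in the others, and NFKBIB had 0.562 ± 0.325 CPM and 5.77 times as much. These 3 genes had the deepest first windows relative to the rest of the gene, and all 3 also rank among the 5 genes with the highest mean CPM per window.

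The ratio was 3.12 in NFKB2, 2.95 in RELB, 2.52 in NFKBIA, 2.44 in NFKBIZ and 1.60 in NFKB1, while the median over all genes was 1.49. First-window means themselves lay at 0.867 CPM in NFKB2 (22890031 to 22893030), 0.314 in RELB (53097398 to 53100397), 0.384 in NFKBIA (46067163 to 46070162), 0.173 in NFKBIZ (46540501 to 46543500) and 0.366 in NFKB1 (23667582 to 23670581). The median first window of the 9 members was 0.366 CPM and that of all genes 0.379 CPM. The median ratio of the 9 members was 2.95.

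NFKBID had 1.64 ± 0.481 CPM in its first window (46773198 to 46776197) and 1.53 CPM in the others. In this window the files list coding exon 6, and exon 1 is listed in the first windows of NFKB2, REL, RELB, NFKBIE and NFKBIZ. The files give 1 exon number per window and do not say which exon is listed where a window holds several, so the window of NFKBID may also hold earlier exons. The next window upstream of NFKBID, which carries coding exon 1 of HCST, measured 0.544 ± 0.203 CPM. In REL the first window (43488485 to 43491484) had 0.279 ± 0.115 CPM and the others 0.155 CPM, so that its start was no lower than its body, both being low.

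**Figure D4:**
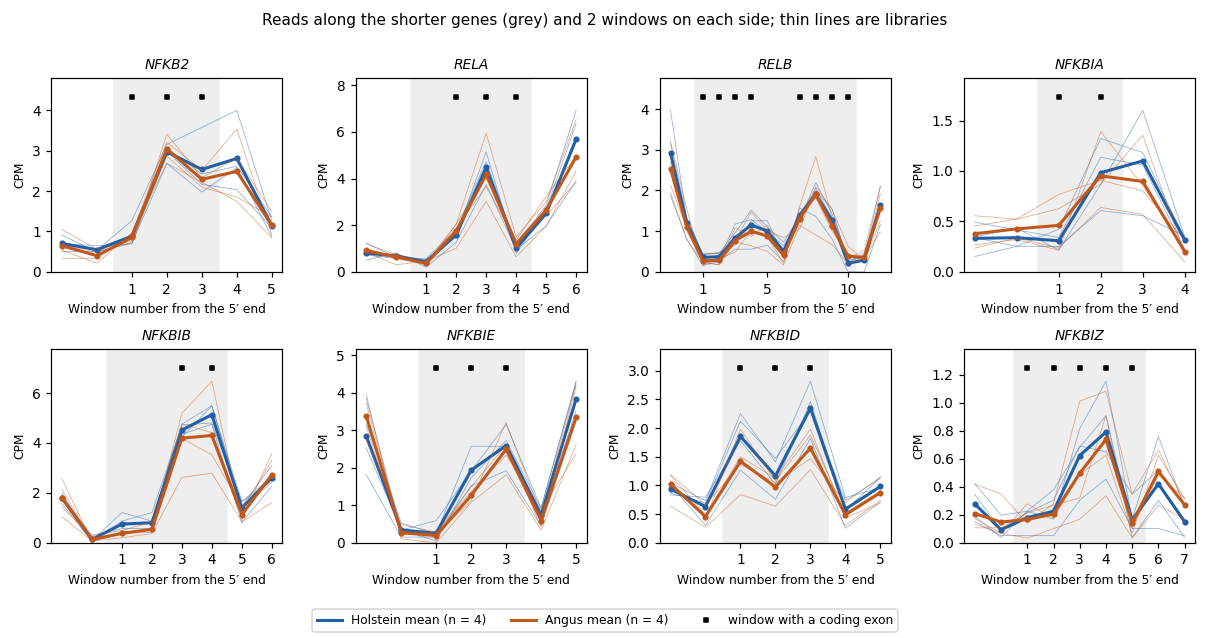
CPM by window along NFKB2, RELA, RELB, NFKBIA, NFKBIB, NFKBIE, NFKBID and NFKBIZ and their 2 flanking windows on each side, numbered in the direction of transcription with window 1 as the first window and 0 and -1 upstream of it, thin lines for libraries and thick lines for breed means. The grey span is the gene, and squares mark windows with a coding exon. Window 1 is low in RELA, NFKBIB and NFKBIE, and window 2 is still low in NFKBIB (0.671 CPM) before window 3 (4.35 CPM), while NFKBID starts at 1.64 CPM.

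With the median of the other windows in place of the mean, 6 of 9 members had the lower first window in 8 of 8 libraries, beside 33.7% of all genes, and NFKB1 was the one that no longer did. With the first 2 windows averaged, it was 8 of 9 members, beside 43.5%, with REL as the exception. With the window just upstream of the gene in place of the first, it was 7 of 9, beside 46.6%. The exceptions there were REL, at 0.269 CPM upstream, and RELB, whose upstream window measured 1.15 ± 0.270 CPM, above the mean of its later windows in 7 of 8 libraries. The low upstream windows of NFKBIB (0.133 ± 0.102 CPM) and NFKBIE (0.306 ± 0.152 CPM) carry the symbols of their neighbours SIRT2 and TMEM151B, so that those values belong to more than one gene. In the pathway list, the first window was below the mean of the others in all 8 libraries in 17 of 27 genes.

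The highest window lay past the middle of the gene in 8 of 9 members, beside 55.9% of all genes. It was the last window in NFKBIB (48891198 to 48894197, 4.72 ± 1.17 CPM), NFKBIE (17879993 to 17882992, 2.54 ± 0.509 CPM), NFKBID (2.00 ± 0.510 CPM) and NFKBIA (46064163 to 46067162, 0.967 CPM). In RELA it was window 3 of 4 (44498919 to 44501918), which measured 3.74, 4.28, 5.15 and 4.73 CPM in Holstein and 3.67, 4.07, 3.02 and 5.94 CPM in Angus. It was the highest of the gene in every library, and the breeds overlapped. In RELB it was window 8 of 10 (53118398 to 53121397, 1.91 ± 0.575 CPM), in NFKBIZ window 4 of 5 (46549501 to 46552500, 0.765 ± 0.294 CPM) and in REL window 12 of 14 (43521485 to 43524484, 0.462 ± 0.188 CPM). NFKB2 was the exception, with its middle window at 3.01 ± 0.255 CPM (22893031 to 22896030). The neighbouring genes downstream could be as high or higher: the windows after RELA, which carry the symbol SIPA1, measured 2.57 and 5.30 CPM, and the second window after NFKBIE, which carries SLC35B2, measured 3.59 CPM.

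NFKB1, the longest member, was low over most of its length and highest near its end. Its highest window was window 37 of 38 (23559582 to 23562581), with 3.14, 2.90, 2.88 and 3.63 CPM in Holstein and 3.18, 3.34, 2.35 and 3.16 CPM in Angus. The libraries were close to each other there, at a mean of 3.07 ± 0.377 CPM. The last 4 windows, 10.5% of the gene, held between 32.4% and 46.0% of its reads in each library.

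Coding windows also differed from the rest within NFKB1, but coding and position along the gene went together. All of the last 4 windows list a coding exon, while windows 12 to 20 and 22 to 24 list none. The part of position in this contrast was not tested. Its 18 windows with a listed coding exon averaged 0.840 CPM and its 20 other windows 0.345 CPM, and the coding windows were the higher in all 8 libraries. Over the genome this held in all 8 libraries for 49.3% of the 7659 genes with at least 3 windows of each kind. In REL, the other member with enough windows of both kinds, 6 coding windows averaged 0.147 CPM and 8 others 0.176 CPM, and the coding windows were higher in 2 of 8 libraries.

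**Figure D5:**
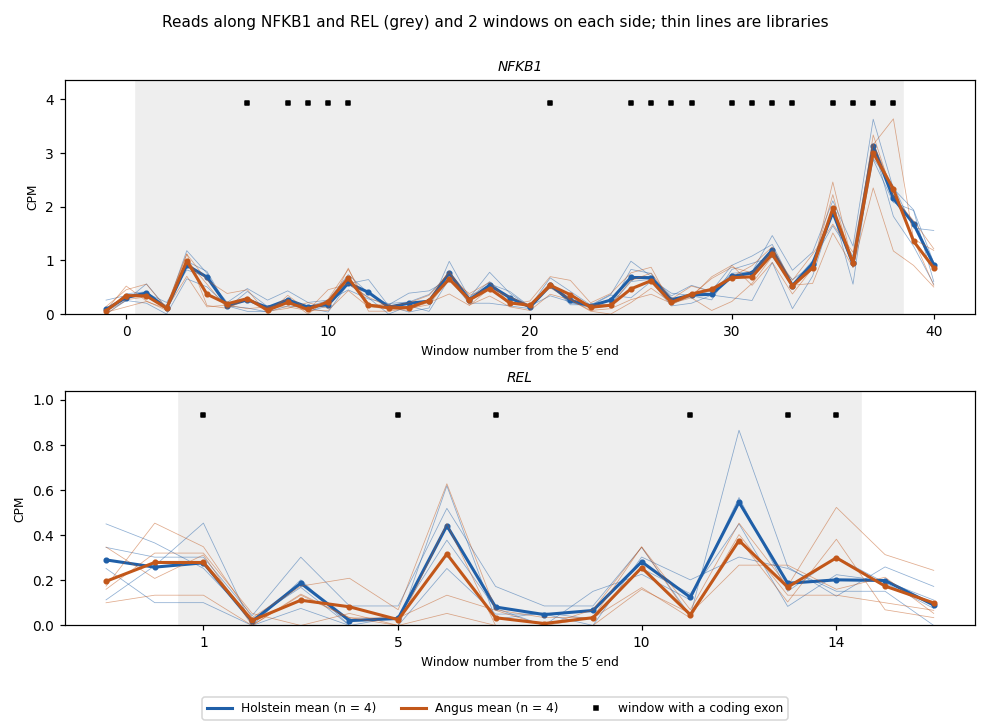
CPM by window along NFKB1 and REL and their flanking windows, numbered in the direction of transcription, thin lines for libraries and thick lines for breed means, with the gene in grey and squares for windows with a coding exon. NFKB1 reaches its highest mean, 3.07 CPM, in window 37, and REL its highest, 0.462 CPM, in window 12.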

How the data were processed

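MIRA-Seq libraries of un-treated fibroblasts from 4 Holstein and 4 Angus heifers were grouped by the breed in the labels. The authors filtered reads, aligned them to UMD v3.1 with NextGENe 2.3.4 and deposited raw read counts per consecutive 3 kb window, without normalization or pooling. The deposited files also give the highest coverage per window as an unscaled signal, which was used only to look for stacked reads (at most 29 in the member windows). Per the labels, CASAVA 1.7 was used. How duplicate reads and reads from repeats were treated is not given in the sources used here. Each window carries 1 gene symbol and at most 1 coding exon number, so a window at a gene's edge can hold sequence of its neighbour.

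CPM was computed from the total over all windows, without TMM factors. Following the study's methods, edgeR 4.0.16 under R 4.3.3 was used to test the counts, by a generalized linear model likelihood-ratio test with Benjamini-Hochberg adjustment, over all windows, and again over gene totals, for features reaching 1 CPM in 4 or more libraries, at FDR < 0.1 and FC ≥ 2. Libraries were scaled by TMM, edgeR's usual method, which was chosen here, as the scaling used by the study is not given in the sources used here. SE values are Wald errors from the fitted model, and 95% intervals are 1.96 SE on each side. Limits at 3 reads cover counting error only. Profiles and counts along genes were computed in Python 3.11.15 with pandas 2.3.3. The procedure was tested on simulated data. Alternatives tried were edgeR's quasi-likelihood test and DESeq2 1.42.0, its size factors, total counts only, other filters and thresholds, no unplaced scaffolds, a block for the animal number, and fewer libraries.

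The members, the pathway list and the rules were chosen with earlier results of these data known. Named are all 10 members; in each, the first and the highest window, and each window called or with an unadjusted p under 0.05 in the fit of windows past the CPM filter; and from the pathway list the genes called or, with none called, the 3 with the smallest p. The windows below the filter with an unadjusted p under 0.05 were named after their values were seen. Windows of BIRC2 and OTULIN were not analysed here.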

Additional observations from a re-analysis of the deposited data

Results flagged for a closer look

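Gene totals and first windows of the 10 genes were examined in each breed for a single library far from the other 3, by the gap to its nearest neighbour relative to the whole range. Of 40 groups of 4 libraries, 4 were flagged in this way, where chance flags about 1 in 20. Holstein 1 was low for the RELB total (0.617 CPM per window, the other Holstein libraries 0.961 to 1.02), the RELB first window (0.152 CPM, the others 0.416 to 0.433) and the NFKBIZ first window (0.0506 CPM, the others 0.216 to 0.227). Angus 3 was low for the REL first window (0.134 CPM, the others 0.313 to 0.349). These 2 libraries also had the smallest shares of reads in windows with a gene symbol, 24.9% and 21.8%. The flags used CPM without TMM factors. For Holstein 1 and Angus 3 those factors were the lowest, 0.747 and 0.666 for gene totals and 0.817 and 0.677 for windows. With CPM divided by these factors, the RELB total of Holstein 1 lay within the range of the other Holstein libraries. By the same rule, the RELB and REL first windows would not be flagged there, while the NFKBIZ first window would. All 3 first-window values remained the lowest of their breed. The other groups were not examined on that scale.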

How the results depend on the processing

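The count of members called stayed at 0, for windows and for gene totals, under every alternative run, while the counts over the whole table moved. From 267 windows the count changed to 425 with no fold change minimum, 141 with the quasi-likelihood test, 141 with DESeq2, 905 with no CPM filter, 163 with the CPM minimum in all 8 samples, 153 without unplaced scaffolds and 642 without Holstein 1 and Angus 3, a choice made after seeing the data. Leaving out 1 library gave 145 to 564 windows, with 564 without Holstein 1, 176 without Holstein 3 and 145 without Holstein 4. From 14 gene totals the count changed, in the same order, to 23, 0, 7, 32, 9, 14 and 23, and to 8 to 20 without 1 library (9 without Holstein 2, 8 without Holstein 4). The quasi-likelihood count of 0 stood beside 1.78% of genes at an unadjusted p under 0.05. Without Angus 1 this share was 6.40% in the likelihood-ratio test, against 1.97% with all libraries, and still 0 members reached it; without Angus 2, NFKBID did, at a log2 fold change of 0.33. Log2 fold changes of uncalled members turned with total counts only in NFKB1 (0.0769), NFKB2 (0.0527), RELA (0.0116) and RELB (0.114). Without 1 library they ranged from -0.226 to 0.0336 in NFKB2 (turning without Angus 3), from -0.0552 to 0.297 in REL (without Angus 4), from -0.0856 to 0.0230 in RELB (without Angus 1) and from -0.102 to 0.368 in NFKBIZ (without Angus 3). They also turned without Holstein 1 and Angus 3 in NFKBIB (-0.0053) and NFKBIZ (-0.0083). The cause was not tested. The other 209 values for single genes and windows kept their direction and stayed uncalled. The first-window count was 7 of 9 without any 1 library. Same-numbered Holstein and Angus animals did not deviate together (correlations -0.216 to 0.109, and 1 of 8 samples correlated best with its own number), so the animal numbers were taken only as names; with the number as a replicate block, 346 windows and 16 gene totals were called and 0 members. Depth limits the low genes most: REL held as few as 26 reads in a library, and 64 of the 86 member windows did not pass the CPM filter.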
